A study of Mus musculus with 38 samples.

Results

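The genes that encode the enzymes of glycolysis, the pentose phosphate pathway and glycogen turnover, with those that admit pyruvate to the mitochondria and the hypoxia regulator Hif1a, were followed through 4 macrophage populations sorted from mouse lung. The 36 genes were chosen by name, by matching the Ensembl identifiers of the count table to gene symbols, and all 36 were found among 43346 genes in the table. They were 3 hexokinases, 9 genes of upper glycolysis, 6 of lower glycolysis, 2 lactate dehydrogenases, 3 genes of the oxidative and 4 of the non-oxidative pentose phosphate pathway, 1 gluconeogenic phosphatase, 4 glycogen genes, 3 genes of pyruvate entry and Hif1a. A filter on low counts kept 35 of them for testing, and Fbp1 was the member left out.

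The libraries came from naive C57Bl/6 mice aged 8 to 10 weeks, and the labels name no treatment or genetic change in any group. Alveolar macrophages (AM), which live in the air spaces, were sorted as CD11c+ Siglec F+ cells without CD11b, CD103, Gr1 or lymphocyte markers. Interstitial macrophages, which live in the tissue between the air spaces and the vessels, were enriched for MerTK and sorted as CD64+ CD11b+ cells, and then divided by MHCII and CD206 (the mannose receptor). IM1 had low MHCII with high CD206, IM2 was high for both, and IM3 had high MHCII with low CD206. Each population had 3 libraries, replicates A, B and C. The labels describe the sort of AM and that of the interstitial cells with different antibody panels, so that population and sort cannot be told apart. The labels do not say whether replicates came from separate animals or pools, so the p-values measure only the spread between these libraries, which may be technical. RNA from about 50000 sorted cells was reverse transcribed from 2 ng with the SMART-Seq v4 kit, a full-length method for small inputs, and sequenced on Ion Proton.

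Glycolysis splits glucose into pyruvate and yields ATP and NADH without oxygen. Lactate dehydrogenase then regenerates NAD+ by reducing pyruvate to lactate, or the pyruvate dehydrogenase complex carries pyruvate into mitochondrial oxidation. The pentose phosphate pathway branches off at glucose 6-phosphate. Its oxidative arm makes NADPH, which macrophages use for lipid synthesis, for glutathione recycling and for the oxidative burst, and its non-oxidative arm returns pentoses to glycolysis. Glycogen is the stored form of glucose. Many steps are served by several isozymes from separate genes, which differ in tissue distribution and in regulation. Alveolar macrophages are known for high lipid turnover, since they clear surfactant in a compartment that is rich in oxygen and poor in glucose.

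The libraries held 11818981 to 15758326 reads assigned to genes. The alveolar markers Siglecf, Marco, Chil3, Fabp4, Pparg, Car4, Cidec and Krt79 were all higher in AM (8 of 8), and the interstitial markers C1qa, C1qb, C1qc, Cx3cr1, Apoe, Ms4a7 and Itgam were each higher in interstitial libraries. IM1 replicate A was the shallowest library and differed most from the other libraries of its group, with a chi-square per degree of freedom of 81.3 and 63.7 against 19.4 between the other pair. Levels are given as CPM (read counts scaled to library size with TMM factors), and as RPKM (the same, divided by the exon length in kilobases) wherever genes are compared with each other. Counts of 0 allow up to 3 counts, or 0.19 to 0.254 CPM before TMM scaling, and amplified reads without molecular identifiers make such limits and all intervals cover counting error only. In bulk samples such as these, fewer cells that use a gene and less RNA per cell cannot be told apart.

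The promoters of 8 members are shown because these genes mark the contrasts described next: the lactate dehydrogenase pair (Ldha and Ldhb), the members with the greatest difference between populations after Ldhb (Aldoc and Pygl), and 4 genes of the pentose phosphate pathway that moved together. Each stretch holds the 150 bases before a RefSeq transcription start (GRCm38.p6, the assembly behind mm10), read 5′ to 3′ on the strand of the gene. Capitals mark ACGTG and GCGTG, the cores bound by hypoxia-inducible factors, and TGACNNNGC, the antioxidant response element, on either strand.
Ldha (chr7:46845654-46845803, plus strand): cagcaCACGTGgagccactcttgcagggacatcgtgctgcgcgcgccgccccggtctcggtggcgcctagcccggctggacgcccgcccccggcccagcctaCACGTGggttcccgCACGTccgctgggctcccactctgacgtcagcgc
Ldhb (chr6:142507958-142508107, minus strand): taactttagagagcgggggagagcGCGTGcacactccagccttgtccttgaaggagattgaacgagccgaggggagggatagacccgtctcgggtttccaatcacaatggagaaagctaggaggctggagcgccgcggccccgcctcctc
Aldoc (chr11:78322923-78323072, plus strand): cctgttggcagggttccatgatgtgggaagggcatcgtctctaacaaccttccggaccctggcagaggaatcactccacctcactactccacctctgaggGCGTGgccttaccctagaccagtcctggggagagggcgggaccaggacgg
Pygl (chr12:70227684-70227833, minus strand): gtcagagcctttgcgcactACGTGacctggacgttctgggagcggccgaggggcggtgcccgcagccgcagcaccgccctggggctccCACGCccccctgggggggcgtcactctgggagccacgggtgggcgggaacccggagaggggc
G6pdx (chrX:74428881-74429030, minus strand): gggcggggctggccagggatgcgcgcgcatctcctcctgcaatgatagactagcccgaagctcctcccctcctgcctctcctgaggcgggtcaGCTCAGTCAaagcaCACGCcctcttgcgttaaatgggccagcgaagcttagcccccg
Pgd (chr4:149166706-149166855, minus strand): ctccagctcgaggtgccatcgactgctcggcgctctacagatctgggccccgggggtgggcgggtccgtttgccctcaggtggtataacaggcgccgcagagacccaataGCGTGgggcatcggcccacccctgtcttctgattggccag
Tkt (chr14:30548981-30549130, plus strand): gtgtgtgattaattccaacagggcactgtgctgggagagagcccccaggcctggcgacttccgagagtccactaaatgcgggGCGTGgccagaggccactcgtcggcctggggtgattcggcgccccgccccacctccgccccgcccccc
Taldo1 (chr7:141392010-141392159, plus strand): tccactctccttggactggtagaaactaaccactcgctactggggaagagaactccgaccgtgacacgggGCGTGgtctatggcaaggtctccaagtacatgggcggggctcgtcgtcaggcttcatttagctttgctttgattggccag
Over the full windows of 250 bases before and 50 bases after the start, ACGTG on either strand was present in 17 of 36 members (47.2%), against 21.8% of 27025 genes with windows of the same length. A gene was counted if any of its windows matched. The 36 members had 51 windows and the 27025 genes 32851, so members had more windows per gene. GCGTG was present in 24 members (66.7%) against 35.2% of all genes. The E-box CACGTG, which contains ACGTG on both strands, was present in Hif1a, Ldha, Pfkfb3 and Pfkm, which is 11.1% of members against 8.1% of all genes. The antioxidant element was present in 6 members (16.7% against 14%), among them G6pdx and Pgd. The member windows were also richer in the letters these motifs need, with a median GC content of 60.7% over 51 windows against 52.7% over 32851, and with a median of 20 CG dinucleotides against 7. A match describes the letters in the window and shows no binding. Ldhb and Ldha, which moved in opposite directions in the counts, both held GCGTG.

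To ask how alveolar and interstitial macrophages differ in sugar metabolism, the average of IM1, IM2 and IM3 (9 libraries) was set against AM (3 libraries). Most of the genes were higher in AM. The enzymes at the end of glycolysis, the pentose phosphate pathway, the glycogen phosphorylase Pygl and the aldolases led this side. Hk1, the isozymes Pfkm, Eno3 and Ldhb, the regulator Pfkfb3 and the branching enzyme Gbe1 were higher in interstitial macrophages. Of the 35 members tested, 26 were lower and 7 higher in interstitial macrophages at an adjusted p under 0.05 (edgeR quasi-likelihood test, Benjamini-Hochberg over 14095 genes). The 2 members not called were Tpi1 and Pgls. Alveolar and interstitial macrophages differed in much of the transcriptome, with 64.6% of all genes tested called, 28.7% lower and 35.9% higher. The median log2 difference was -0.93 over the members and 0.10 over all genes tested, and the median absolute difference was 1.33 against 0.69. Members were chosen with earlier results of these data known, so the contrasts of members with all genes describe this list and test nothing. In 30 of the 35 members no interstitial library overlapped an AM library, where the same was so for 48.7% of all genes tested, and the 5 exceptions were Hk3, Gpi1, Tpi1, Pgls and Pdhb.

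**Figure D1:**
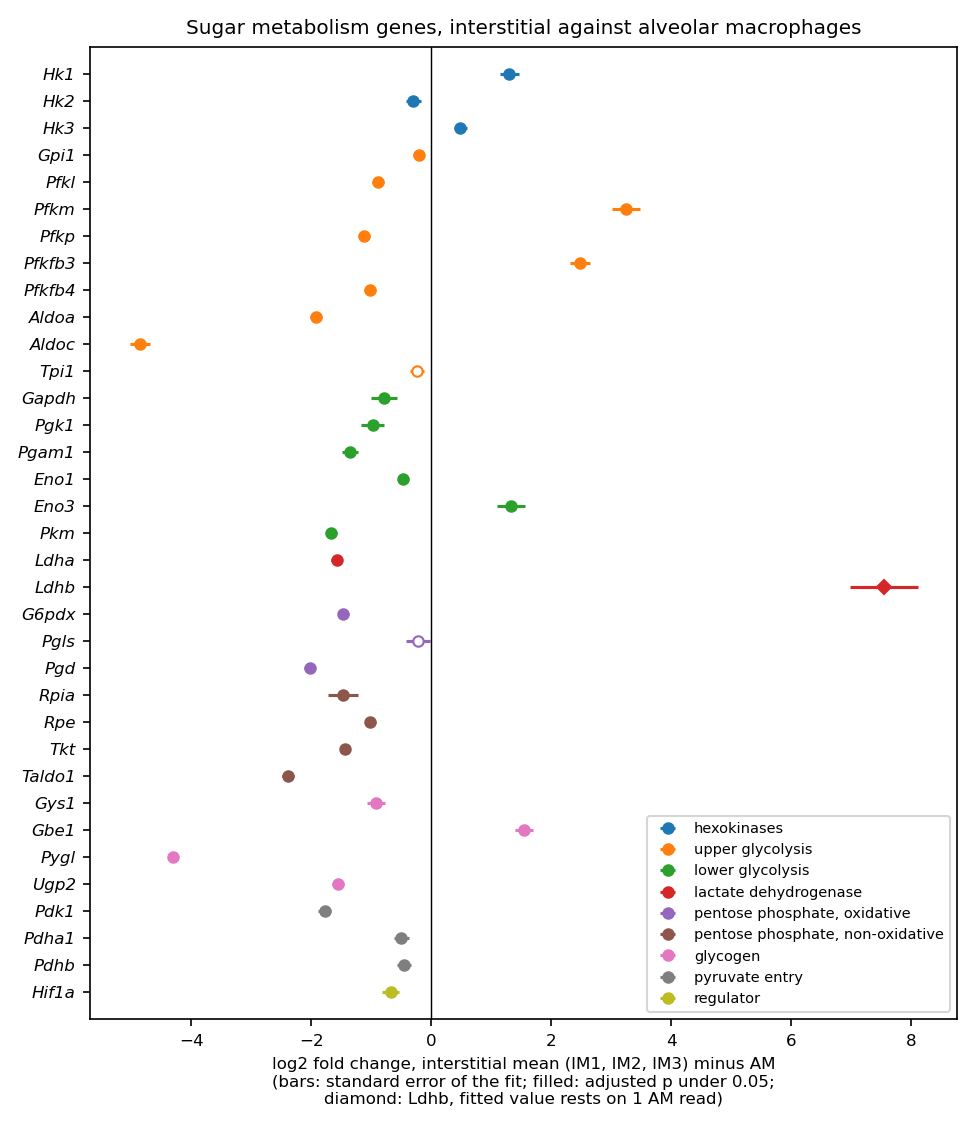
The x axis gives the log2 fold change of the interstitial mean against AM for the 35 tested members, listed by pathway step on the y axis, with the standard error of the fit as bars, filled symbols for an adjusted p under 0.05 and a diamond for Ldhb, whose fitted value rests on 1 AM read. The 26 members called lower lie left of 0 down to Aldoc at -4.86, the 7 called higher lie right of it, and Tpi1 and Pgls are open.

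Taken separately against AM, IM1 had 7 members higher and 23 lower, where 33.1% of all genes were higher and 25.7% lower (58.8% called). IM2 had 7 higher and 27 lower, where 34.3% of all genes were higher and 26.2% lower (60.5% called). IM3 had 6 higher and 24 lower, where 32.4% of all genes were higher and 25% lower (57.4% called). These comparisons share the AM libraries. Hk1, Pfkm, Pfkfb3, Eno3, Ldhb and Gbe1 were higher in all 3, and 22 members were lower in all 3. Among all genes tested, 25.7% were higher and 18.7% lower in all 3. Pgls was called in none, and Hk2, Hk3, Gpi1, Tpi1, Gapdh and Pdhb gave a different call in at least 1 of the 3.

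Per length, the same gene led in every population. Aldoa, the aldolase that cleaves fructose bisphosphate, had the highest mean level of all members with 1306 RPKM in AM, 383 in IM1, 303 in IM2 and 351 in IM3. Pkm, the last enzyme of glycolysis, was next with 474, 148, 130.1 and 171 RPKM. In AM the transaldolase gene Taldo1 followed with 389 RPKM, above Ldha with 274. In each interstitial population Tpi1 followed with 135, 109 and 128 RPKM in IM1, IM2 and IM3. The order after Aldoa depended on the length used, here all exons of the gene. The longest coding transcript has 1362 bases in place of 1998 for Taldo1 and 1607 in place of 2209 for Tpi1. For Pkm the change is smaller, 2432 in place of 2599. Gapdh, Pgk1 and Pgam1 are left out of this order. Their levels, at a mean of 9.09, 10.4 and 36.3 CPM in AM, were far below those of the enzymes before and after them in the pathway. Reads mapping to several places were not counted. Their share of mapped reads was 13.9% to 14.5% in AM and 10.65% to 14.8% in interstitial libraries, with the highest in IM1 replicate A, and their part in these levels was not tested. Rows named as pseudogenes of Gapdh held 47 counts and those of Pgam1 held 236, against 1061 and 3359 in the genes. Reads that fit both a gene and its copy are in neither count, so these counts cannot show how many were lost.

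Hexokinases phosphorylate glucose on entry, and the isozymes moved apart. Hk1, the broadly expressed isozyme that sits on mitochondria, had 23.4, 26.04 and 25.1 CPM in AM replicates A, B and C. It had 38.1, 68.8 and 68.6 CPM in IM1, 56.0, 64.5 and 67.5 in IM2, and 61.7, 61.8 and 63.5 in IM3. Every interstitial library was above every AM library, and IM1 replicate A was the lowest of them. The log2 difference was 1.30 ± 0.16 (SE, adjusted p = 3.50e-06, edgeR). Hk2, an inducible isozyme, ranged from 11.8 to 18.7 CPM in interstitial libraries and from 18.7 to 20.1 in AM. Its small difference of -0.30 ± 0.12 (adjusted p = 0.0402) lost its call in 11 alternatives, 9 of which left out 1 library, with an adjusted p up to 0.138.

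Hk3, a hexokinase of myeloid cells, split the interstitial populations. It had 49.3, 54.8 and 54.5 CPM in AM, 81.3, 101 and 112 in IM1, and 101, 87.5 and 109.7 in IM2. In IM3 it had 40.9, 41.4 and 40.8 CPM, below every other library. The 7 members higher in the average of the interstitial populations include Hk3 (0.48 ± 0.11, adjusted p = 0.0017), which averages over this split. Hk3 was higher than AM in IM1 by 0.89 ± 0.14 and in IM2 by 0.91 ± 0.14 (adjusted p = 3.96e-05 and 3.17e-05). In IM3 it was lower than AM by -0.37 ± 0.14 (adjusted p = 0.0327). This last call ended in 6 alternatives, 5 of them without 1 library (AM replicate B or C, or any IM3 replicate), with an adjusted p of 0.0705 to 0.089 and a difference of -0.37 to -0.34. Exons of Hk3 overlap those of Unc5a on the opposite strand, and counting was without strand. Unc5a stood at 17.6 CPM in AM, 14.9 in IM1, 22.3 in IM2 and 1.31 in IM3, and its part in the result was not tested.

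As a share of the 3 hexokinase transcripts per length, Hk3 held 69.9% ± 0.447 (SD, n = 3) in AM, 73.5% ± 1.21 in IM1, 73.5% ± 2.71 in IM2 and 52.3% ± 0.623 in IM3. Hk1 held 14.2% ± 0.166, 18.6% ± 3.15, 20.1% ± 2.21 and 34.2% ± 0.423 in the same order. Hk2 held 15.9% ± 0.332 in AM and 13.5% ± 0.51 in IM3, and 7.91% ± 2.30 and 6.36% ± 1.21 in IM1 and IM2. The summed level was 20.5 ± 1.10 RPKM in AM, 36.3 ± 5.93 in IM1, 36.6 ± 2.97 in IM2 and 21.3 ± 0.239 in IM3. Which isozyme led in IM3 depended on the length used. With CPM, or with the longest coding transcript in place of all exons of the gene, Hk1 led there with 51.7% or 47.9%.

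Phosphofructokinase commits sugar to glycolysis, and its 3 genes encode a liver (Pfkl), a muscle (Pfkm) and a platelet (Pfkp) type subunit. Pfkm was close to absent in AM, with 0.911, 1.19 and 1.92 CPM. It had 16.1, 14.3 and 20.1 CPM in IM1, 14.4, 13.2 and 14.9 in IM2, and 8.87, 7.77 and 9.81 in IM3. Every interstitial library was above every AM library, while IM1 and IM2 overlapped, and the log2 difference from AM was 3.25 ± 0.23 (adjusted p = 5.46e-09). Pfkp, in contrast, was highest in AM with 283, 263 and 270.0 CPM and lowest in IM1 with 75.8, 98.3 and 110.5. It had 93.9, 112 and 114 CPM in IM2 and 182, 190.5 and 202 in IM3, which lay between. Its difference from AM was -1.13 ± 0.10 (adjusted p = 1.18e-07), and Pfkl also fell, by -0.89 ± 0.10, from 105 to 118 CPM in AM to 50.9 to 73.2 in interstitial libraries. The summed level of the 3 was 55.3 ± 0.943 RPKM in AM, 29.9 ± 3.29 in IM1, 29.3 ± 2.94 in IM2 and 38.1 ± 1.35 in IM3.

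Within this family the share of Pfkm per length rose from 0.816% ± 0.301 in AM to 19% ± 2.12 in IM1, 16.4% ± 1.69 in IM2 and 7.81% ± 0.696 in IM3. Pfkp held 52.4% ± 2.63 in AM and 53.5% ± 3.30 in IM3, and 33.6% ± 3.21 and 38.7% ± 1.96 in IM1 and IM2. In IM1 and IM2 the leading subunit was Pfkl (47.4% and 44.8%), but Pfkp led in both with CPM (54.3% and 59.7%) or with transcript length (50.2% and 55.7%). Exons of Pfkm overlap those of Senp1, and exons of Pfkp those of Pitrm1, each on the opposite strand. Senp1 was at 42.2, 41.1, 50.2 and 43.5 CPM in AM, IM1, IM2 and IM3. Pitrm1, like Pfkp, had its highest mean in AM, with 79.8, 45.1, 52.1 and 52.3 CPM in the same order. The part of either neighbour in these results was not tested.

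The Pfkfb genes encode the enzymes that make and break the sugar phosphate that activates phosphofructokinase, and Pfkfb3, a strong producer of it, ran against Pfkfb4. Pfkfb3 had 16.9, 17.5 and 16.6 CPM in AM. It had 102, 94.0 and 69.4 CPM in IM1, 153, 114 and 96.8 in IM2 and 80.0, 75.0 and 86.6 in IM3. The lowest interstitial library was thus far above the highest AM library, and the difference was 2.48 ± 0.17 (adjusted p = 2.13e-09). Pfkfb4 fell by -1.02 ± 0.10 (adjusted p = 3.73e-07), with 199 to 215 CPM in AM, 71.1 to 107 across IM1 and IM2 and 122 to 145 in IM3. Pfkfb3 held 3.50% ± 0.203 of their summed RPKM in AM, 32% ± 6.54 in IM1, 36% ± 8.76 in IM2 and 20.9% ± 0.373 in IM3. With CPM the same shares crossed over in IM1 and IM2, where Pfkfb3 then led with 51.3% and 55.6%.

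**Figure D2:**
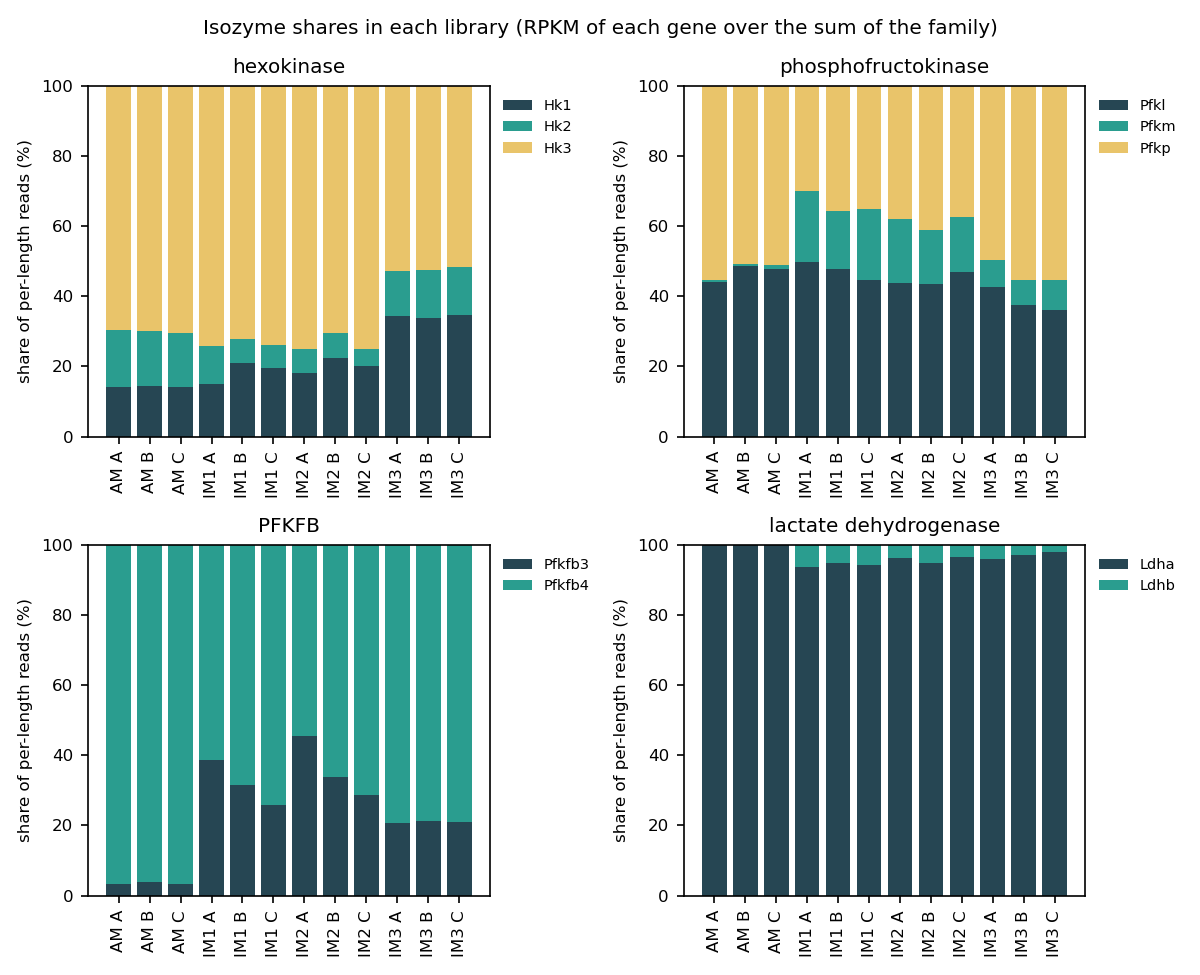
Each bar is 1 library on the x axis, and the y axis gives the share of each gene in the summed RPKM of its family, in percent. Pfkm, Pfkfb3 and Ldhb take a larger share in each interstitial library than in any AM library, and the Hk1 share is largest in IM3.

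The aldolases carried one of the 2 largest drops. Aldoc, the brain-type aldolase, had 242, 235 and 256 CPM in AM. In interstitial macrophages it had 10.8, 4.51 and 6.36 CPM (IM1), 6.78, 5.26 and 8.07 (IM2), and 12.3, 10.8 and 14.3 (IM3). No library came near the AM level, and the log2 difference was -4.86 ± 0.17 (adjusted p = 6.31e-13). Aldoa fell by -1.93 ± 0.10 (adjusted p = 1.49e-10), from 3137, 3896 and 3761 CPM in AM to between 800 and 1236 in interstitial libraries. Aldoc held 5.47% ± 0.638 of the summed aldolase RPKM in AM, 0.558% ± 0.155 in IM1, 0.671% ± 0.112 in IM2 and 1.08% ± 0.141 in IM3, so Aldoa was the main aldolase throughout.

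Within upper glycolysis the isomerases changed least. Gpi1, which turns glucose 6-phosphate into fructose 6-phosphate, ranged from 178 to 194 CPM in AM and from 143 to 184 in interstitial libraries. Its difference of -0.21 ± 0.09 (adjusted p = 0.0457) lost its call in 12 alternatives, 10 of them without 1 library, with an adjusted p up to 0.183. Tpi1, the triose phosphate isomerase, ranged from 316 to 333 CPM in AM and from 228 to 373 in interstitial libraries, with a difference of -0.24 ± 0.11 (adjusted p = 0.0708). Its highest value was in IM1 replicate A, and without that library it was lower in interstitial macrophages (-0.31, adjusted p = 0.00178).

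In lower glycolysis 5 of 6 genes were lower in interstitial macrophages and 1 was higher, where 28.7% of all genes tested were lower and 35.9% higher. Pkm had 1222, 1318 and 1153 CPM in AM and 326 to 465 in interstitial libraries, which left no overlap. Its log2 difference was -1.67 ± 0.09 (adjusted p = 9.48e-11). Eno1, the common enolase, fell by less (-0.47 ± 0.09, adjusted p = 0.000397), from 252 to 267 CPM in AM to 156 to 222. Its call against AM in IM3 alone (-0.29 ± 0.12, adjusted p = 0.0464) ended in 12 alternatives, 10 of them without 1 library, with an adjusted p up to 0.153. Eno3, the muscle enolase, went the other way. It had 3.08, 4.98 and 4.49 CPM in AM against 5.84 to 13.8 in interstitial libraries, a difference of 1.33 ± 0.24 (adjusted p = 0.00018). Its share of enolase RPKM was 4.74% ± 1.03 in AM and 14.3% ± 4.0, 15% ± 0.856 and 15.1% ± 1.36 in IM1, IM2 and IM3. Reads mapping to several places were not counted for Eno1 either, and their part in this share was not tested.

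Gapdh, Pgk1 and Pgam1, which act between the trioses and enolase, were lower in interstitial macrophages by -0.79 ± 0.21, -0.98 ± 0.19 and -1.36 ± 0.13, with adjusted p of 0.00316, 0.000342 and 1.07e-07. These differences rest on few counted reads. The Gapdh call in IM2 against AM (-0.79 ± 0.26) ended without AM replicate B (-0.70, adjusted p = 0.0611) or IM2 replicate C (-0.54, adjusted p = 0.0804). In IM3 the Gapdh difference was -0.53 ± 0.26 (adjusted p = 0.0958). Gapdh also overlaps Iffo1 on the opposite strand, which was at 24.8 CPM in AM and 11.1, 13.2 and 15.4 in IM1, IM2 and IM3, and the part of Iffo1 in the result was not tested.

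The lactate dehydrogenase subunits moved in opposite directions. Ldha, the muscle-type subunit, had 830.3, 843 and 774 CPM in AM. It had 302, 250 and 263 CPM in IM1, 269, 223 and 241 in IM2, and 297, 323 and 289.5 in IM3. AM and interstitial libraries were well apart, with a log2 difference of -1.58 ± 0.09 (adjusted p = 2.77e-10). Ldhb, the heart-type subunit, had 1 count in the 3 AM libraries together and 798 in the 9 interstitial libraries, a ratio of 261 (95% exact interval 46.7 to 1.03e+04). Its levels were 10.5, 7.23 and 8.17 CPM in IM1, 5.34, 6.24 and 4.42 in IM2 and 6.49, 4.91 and 3.25 in IM3. Ldhb was thus detected in all 9 interstitial libraries, but Ldha remained the main transcript of the pair, with 94.3% ± 0.499, 96.0% ± 0.902 and 97.0% ± 0.954 of their RPKM in IM1, IM2 and IM3.

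Against AM, muscle markers moved with Pfkm, Eno3 and Ldhb. The summed level of the striated muscle markers Myh6, Tnnt2, Actn2, Ckm, Ttn and Tnni3 lay between 0.981 and 1.90 CPM in the AM libraries. IM1 libraries had 33.2 to 55.9 CPM, IM2 libraries 44.8 to 57.2 and IM3 libraries 12.7 to 14.3. Of the 6 markers, 4 could be tested and 3 were higher in interstitial macrophages, where 35.9% of all genes tested were higher and 28.7% lower. Myh6, Actn2 and Ckm were at 0 in all AM libraries, and Ckm also in all IM3 libraries. Most of the sum came from Ttn and Tnni3. Among the interstitial populations the mean of Pfkm was lowest in IM3. So was that of Ldhb, at 4.88 CPM against 8.63 in IM1 and 5.33 in IM2, though its IM2 and IM3 libraries overlapped. The mean of Eno3 was highest in IM3, at 12.1 CPM against 10.5 in IM1 and 9.30 in IM2. Fibroblast markers were at 0 to 0.35 CPM in AM and 33.03 to 111 in interstitial libraries, with all 5 higher there. Of 5 endothelial markers, 4 were higher in interstitial macrophages and were at 0 in all AM libraries (Cdh5, Kdr, Cldn5 and Tek). The exception, Vwf, was higher in AM, and the summed level was 101.5 to 118 CPM in AM and 30.4 to 98.6 in interstitial libraries. Of 7 epithelial markers tested, 5 were higher in interstitial macrophages, and Epcam and Cdh1 were higher in AM. Their sum was 156 to 178 CPM in AM and 9.40 to 61.7 in interstitial libraries. Dendritic cell markers summed to 2.03 to 2.95 CPM in AM and 22.2 to 54.6 in interstitial libraries, with 2 of 3 tested higher there. The part of other cell types in these results was not tested.

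The pentose phosphate pathway was lower in interstitial macrophages at nearly every step. In the oxidative arm, G6pdx, the entry enzyme and first source of NADPH, had 400.5, 473 and 420.0 CPM in AM and 139 to 177 in interstitial libraries. Its difference was -1.47 ± 0.09 (adjusted p = 6.22e-10). Pgd, the second source of NADPH, fell further, by -2.03 ± 0.09 (adjusted p = 8.02e-12). It had 984, 1077 and 1027 CPM in AM, 188, 235 and 195 in IM1, 237, 235 and 253 in IM2, and 312, 324 and 325 in IM3. Pgls, the lactonase between them, was the exception. It ranged from 36 to 52.7 CPM in AM and from 28.7 to 61.4 in interstitial libraries, so that the groups overlapped (-0.22 ± 0.20, adjusted p = 0.351). Exons of G6pdx overlap those of Ikbkg on the opposite strand. Ikbkg also had its highest mean in AM, with 88.2 CPM against 43.2, 46.2 and 52.5 in IM1, IM2 and IM3, and its part in the result was not tested.

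In the non-oxidative arm all 4 genes were lower in interstitial macrophages, where 28.7% of all genes tested were lower. Taldo1 had 761, 824 and 748 CPM in AM and 109.9 to 187 in interstitial libraries, and its difference of -2.39 ± 0.10 (adjusted p = 1.10e-11) was the largest of the pathway. Tkt, the transketolase, had 572, 608 and 590.3 CPM in AM. It had 158, 175 and 175 CPM in IM1, 192, 180.3 and 199 in IM2, and 290.3, 316 and 340.1 in IM3. AM was highest and IM3 lay between AM and the other interstitial populations, with no overlap of any interstitial library with AM, and the difference was -1.44 ± 0.08 (adjusted p = 3.85e-10). Rpia and Rpe, which interconvert the pentose phosphates, fell by -1.47 ± 0.25 and -1.02 ± 0.09 (adjusted p = 9.55e-05 and 9.62e-08). Summed per length, the oxidative arm stood at 312 ± 17.6 RPKM in AM and 96.5 ± 2.23, 99.0 ± 5.21 and 106 ± 2.28 in IM1, IM2 and IM3. The non-oxidative arm stood at 504 ± 22.96 RPKM in AM and 114 ± 14.6, 103 ± 7.52 and 147 ± 2.79.

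The glycogen members were split between the making of branches and the rest. Pygl, the glycogen phosphorylase that releases glucose units, had the second largest drop among members. It had 543, 496 and 478 CPM in AM, 35.9, 32.8 and 33.99 in IM1, 28.6, 29.6 and 32.6 in IM2, and 16.8, 18.04 and 13.6 in IM3. AM was far above, and IM3 was below the other interstitial populations without overlap. The difference from AM was -4.31 ± 0.09 (adjusted p = 5.32e-15). Pygb, another glycogen phosphorylase gene and not a member, went the other way. Its mean was 65.0 CPM in AM and 128 in interstitial libraries (0.97 ± 0.19, adjusted p = 0.000282, edgeR). Ugp2, which makes the activated glucose for glycogen synthesis, fell by -1.55 ± 0.10 (adjusted p = 2.33e-09), and Gys1, the glycogen synthase, fell by -0.93 ± 0.15 (adjusted p = 7.07e-05). Gbe1, the branching enzyme, rose by 1.55 ± 0.15 (adjusted p = 1.38e-07), from 13.8, 15.9 and 16.6 CPM in AM to 34.7 to 59.2 in interstitial libraries.

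**Figure D3:**
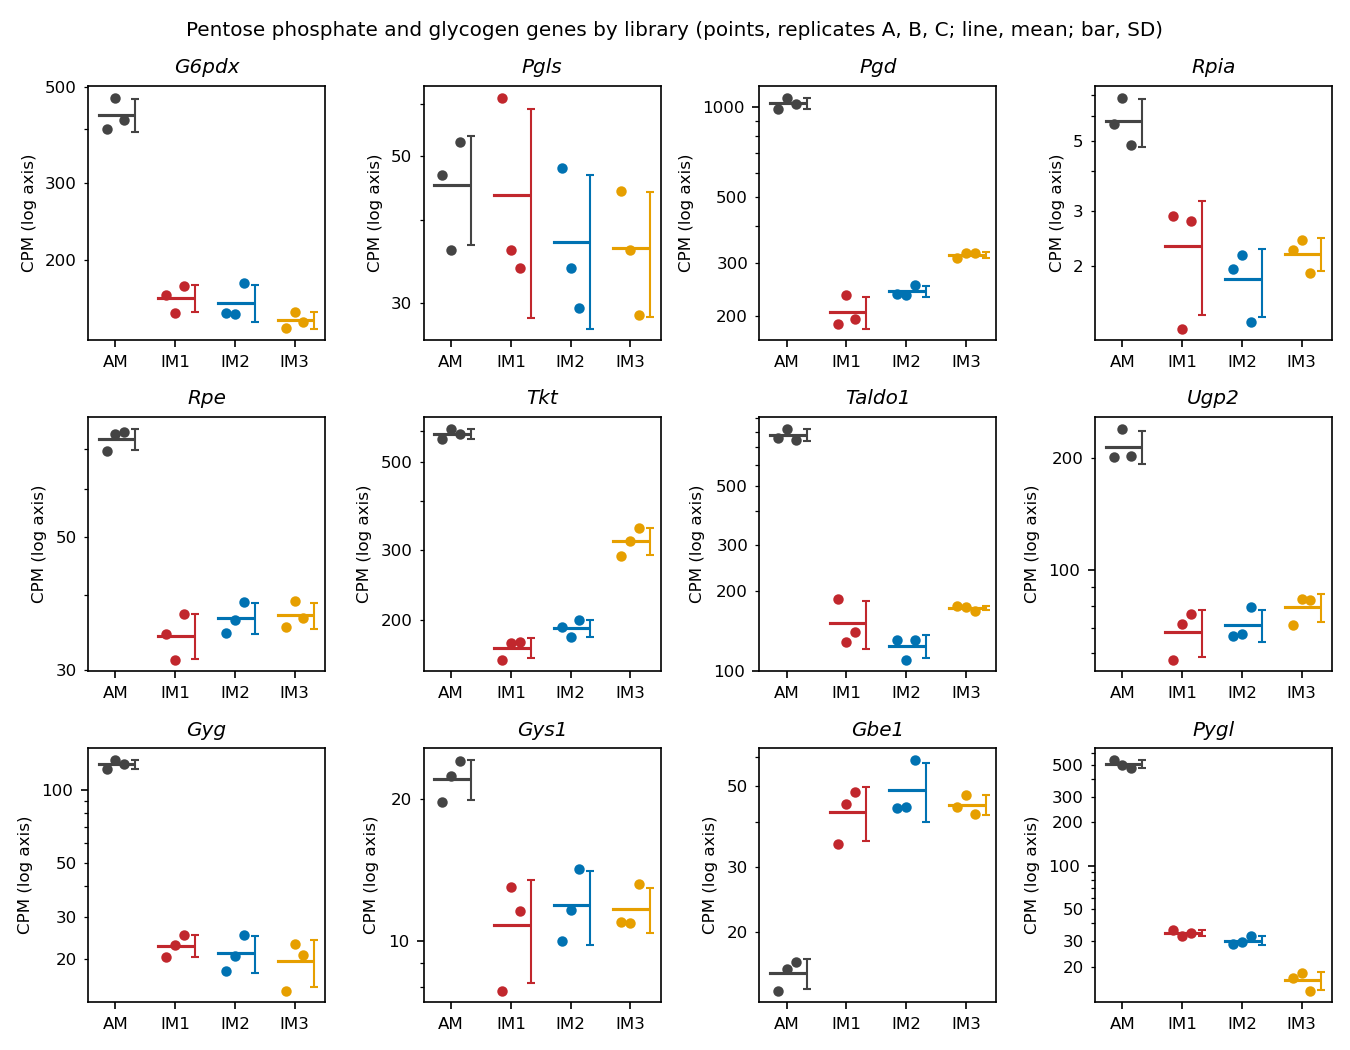
CPM on a log y axis by population on the x axis for the 7 pentose phosphate members, the 4 glycogen members and Gyg, which is from the wider glycogen list; points are libraries, lines means and bars SD. All panels except Pgls keep AM apart from every interstitial library, and Gbe1 is the panel in which AM is lowest.

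At the entry of pyruvate into mitochondria all 3 genes were lower in interstitial macrophages, where 28.7% of all genes tested were lower. Pdk1, a kinase that switches the pyruvate dehydrogenase complex off, had 39.7, 43.1 and 39.7 CPM in AM and 9.13 to 15.2 in interstitial libraries (-1.78 ± 0.11, adjusted p = 1.15e-09). The subunits of the complex changed less, with -0.50 ± 0.12 for Pdha1 and -0.46 ± 0.12 for Pdhb (adjusted p = 0.00144 and 0.00249). Pdhb was called in IM2 and IM3 against AM but had -0.24 ± 0.14 in IM1 (adjusted p = 0.17), and its IM3 call ended without AM replicate C (-0.40, adjusted p = 0.055). The Pdha1 call in IM2 against AM (-0.38 ± 0.15, adjusted p = 0.0336) ended in 6 alternatives, 5 of them without 1 library, with an adjusted p up to 0.129. Its IM3 call ended without IM3 replicate A (-0.40, adjusted p = 0.0517).

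Hif1a, the oxygen-regulated subunit of the factor that drives many glycolytic genes, had 143, 146 and 146 CPM in AM and 55.9 to 106 in interstitial libraries, with the lowest value in IM1 replicate A. The difference was -0.68 ± 0.14 (adjusted p = 0.00039). Against AM its call in IM2 (-0.52 ± 0.17) ended without IM2 replicate A (-0.44, adjusted p = 0.0723). Of 9 tested targets of hypoxia signalling outside glycolysis, 6 were higher in interstitial macrophages (Vegfa, Adm, P4ha1, P4ha2, Bnip3 and Ddit4). Lower were 2 (Car9 and Ndrg1). Among all genes tested, 35.9% were higher and 28.7% lower. Adm and P4ha2 had 0 counts in AM and low means in interstitial libraries, 1.46 and 5.42 CPM. The part of other cell types in these levels was not tested. Vegfa had 1 count in AM and 939 in interstitial libraries, a ratio of 307 (95% exact interval 54.9 to 1.21e+04).

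Fbp1, the gluconeogenic phosphatase that opposes phosphofructokinase, had 0 counts in AM and 55 in all interstitial libraries together, which is at least 5.99-fold higher against 3 counts over the AM libraries. Its level in interstitial libraries was 0 to 1.22 CPM, with the highest value in IM1 replicate A.

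The sugar metabolism genes outside the 36 were less one-sided. Of 98 further genes of transport, glycolysis, the pentose phosphate pathway, glycogen, gluconeogenesis, pyruvate entry and regulation, 76 were tested, and 19 were higher and 30 lower in interstitial macrophages. That is 64.5%, next to the 64.6% of all genes, of which 35.9% were higher and 28.7% lower. The median difference was -0.20 against 0.1 over all genes. In all 3 comparisons with AM, 14 of the 76 were higher and 26 lower, where 25.7% of all genes were higher and 18.7% lower. Of 9 transport genes tested, 2 were higher in interstitial macrophages, 4 were lower and 3 were not called. The high-affinity glucose transporter Slc2a3 had 0.911, 0.21 and 0.663 CPM in AM and 7.72 to 14.4 in interstitial libraries (4.04 ± 0.29, adjusted p = 5.39e-09). The lactate and pyruvate carrier Slc16a1 fell from 40.6, 48.4 and 45.3 CPM to 6.20 to 15.4 (-2.07 ± 0.14, adjusted p = 2.32e-09).

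Other genes of this wider list with a log2 difference of at least 2 in size stood on both sides. Lower in interstitial macrophages were Tigar, a phosphatase that lowers the activator of phosphofructokinase (-2.99 ± 0.24), Gyg, the glycogenin that primes glycogen (-2.59 ± 0.12), Pdk4, another pyruvate dehydrogenase kinase (-2.52 ± 0.20), and Ldhd, a dehydrogenase of D-lactate (-2.39 ± 0.40). Their adjusted p were at most 7.27e-05. The genes on the higher side had 3 counts or fewer in AM. Pygm, the muscle glycogen phosphorylase, had 3 counts in AM and 497 in interstitial libraries, a ratio of 54.1 (95% exact interval 18.4 to 263). Eno2, the neuronal enolase, had 3 counts against 205, a ratio of 22.3 (7.53 to 109). Ppp1r3c, a glycogen-targeting phosphatase subunit, had 0 counts against 158, at least 17.2-fold higher. Hif3a, a relative of Hif1a, had 0 counts against 253, at least 27.6-fold higher. The Hif3a reads were in IM1 and IM2, with 7.34 CPM in IM1 replicate A and 1.04 to 3.93 in the other libraries of these populations, against 0.0677 to 0.22 in IM3. Pygm, Pfkm and the summed striated muscle markers were all higher in interstitial macrophages than in AM. The IM3 libraries held 3.97 to 5.14 CPM of Pygm, which overlapped with IM1 (1.59 to 4.61) and with IM2 (1.355 to 6.37). The part of muscle cells in the Pygm result was not tested.

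Other gene groups separated AM from interstitial macrophages along with these genes. All 12 cell cycle genes were higher in AM, where 28.7% of all genes tested were higher. Their summed level was 1173 to 1409 CPM in AM against 283 to 377 in interstitial libraries. Of 12 immediate early genes known to respond to tissue dissociation, 11 were higher in interstitial macrophages, where 35.9% of all genes tested were higher. Their sums were 11560 to 19480 CPM against 605 to 680 in AM. Red cell transcripts were at 346 to 427 CPM in AM and at most 73.2 in interstitial libraries. The part of these in the differences between members was not tested.

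Among the interstitial populations the members differed less. Between IM1 and IM2 no member was called by edgeR (0 of 35), where 1.71% of all genes were called (0.490% higher in IM1 and 1.22% lower). At an unadjusted p under 0.05 there were 7 (Gpi1, Pfkfb3, Aldoa, Tpi1, Pgam1, Ldhb and Pdhb), and DESeq2 also called 0. The replicate letter as a block also left 0 called. Without IM1 replicate B, Aldoa and Pdhb were called higher in IM1 (0.47 and 0.54, adjusted p = 0.0278 and 0.0246).

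Between IM1 and IM3 the share of members called was close to that of all genes. Between IM1 and IM3, 8 of 35 members were called (22.9%, where 24.4% of all genes were, 12.7% higher and 11.7% lower in IM1). Higher in IM1 were the 3 genes Hk3 (1.26 ± 0.14, adjusted p = 6.48e-06), Pygl (1.08 ± 0.13, adjusted p = 1.43e-05) and Pfkm (0.93 ± 0.21, adjusted p = 0.00453). Lower in IM1 than in IM3 were the 5 genes Pfkp (-1.01 ± 0.14, adjusted p = 5.29e-05), Tkt (-0.90 ± 0.11, adjusted p = 2.23e-05), Aldoc (-0.81 ± 0.24, adjusted p = 0.0238), Pfkfb4 (-0.69 ± 0.14, adjusted p = 0.00154) and Pgd (-0.64 ± 0.12, adjusted p = 0.000742). The Aldoc call ended in 5 alternatives, 4 of them without 1 library (IM1 replicate B or C, IM3 replicate A or C), with differences of -0.83 to -0.56 and adjusted p up to 0.1.

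Between IM2 and IM3, 11 of 35 members were called (31.4%, where 11.4% of all genes were, 6.49% higher and 4.94% lower in IM2). Higher in IM2 were the 4 genes Hk3 (1.28 ± 0.14, adjusted p = 1.16e-05), Pygl (0.91 ± 0.13, adjusted p = 0.000156), Pfkm (0.68 ± 0.21) and Pfkfb3 (0.59 ± 0.17). Lower in IM2 than in IM3 were the 7 genes Aldoc (-0.90 ± 0.24), Pfkp (-0.85 ± 0.14, adjusted p = 0.000499), Tkt (-0.73 ± 0.11, adjusted p = 0.000292), Pfkfb4 (-0.49 ± 0.13), Taldo1 (-0.48 ± 0.14), Pgd (-0.41 ± 0.11) and Pkm (-0.39 ± 0.12). The calls of Hk3, Pygl, Pfkp and Tkt held in every alternative run. The other 7, with adjusted p of 0.0231 to 0.0498, each ended in at least 4 alternatives without 1 library, with an adjusted p up to 0.197 (Pfkfb3 without IM2 replicate A, 0.39). With the replicate letter as a block Eno1 was called as well, lower in IM2 (-0.38, adjusted p = 0.0394, against 0.0519 without the block). The comparisons of IM1 and of IM2 with IM3 share the IM3 libraries.

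**Figure D4:**
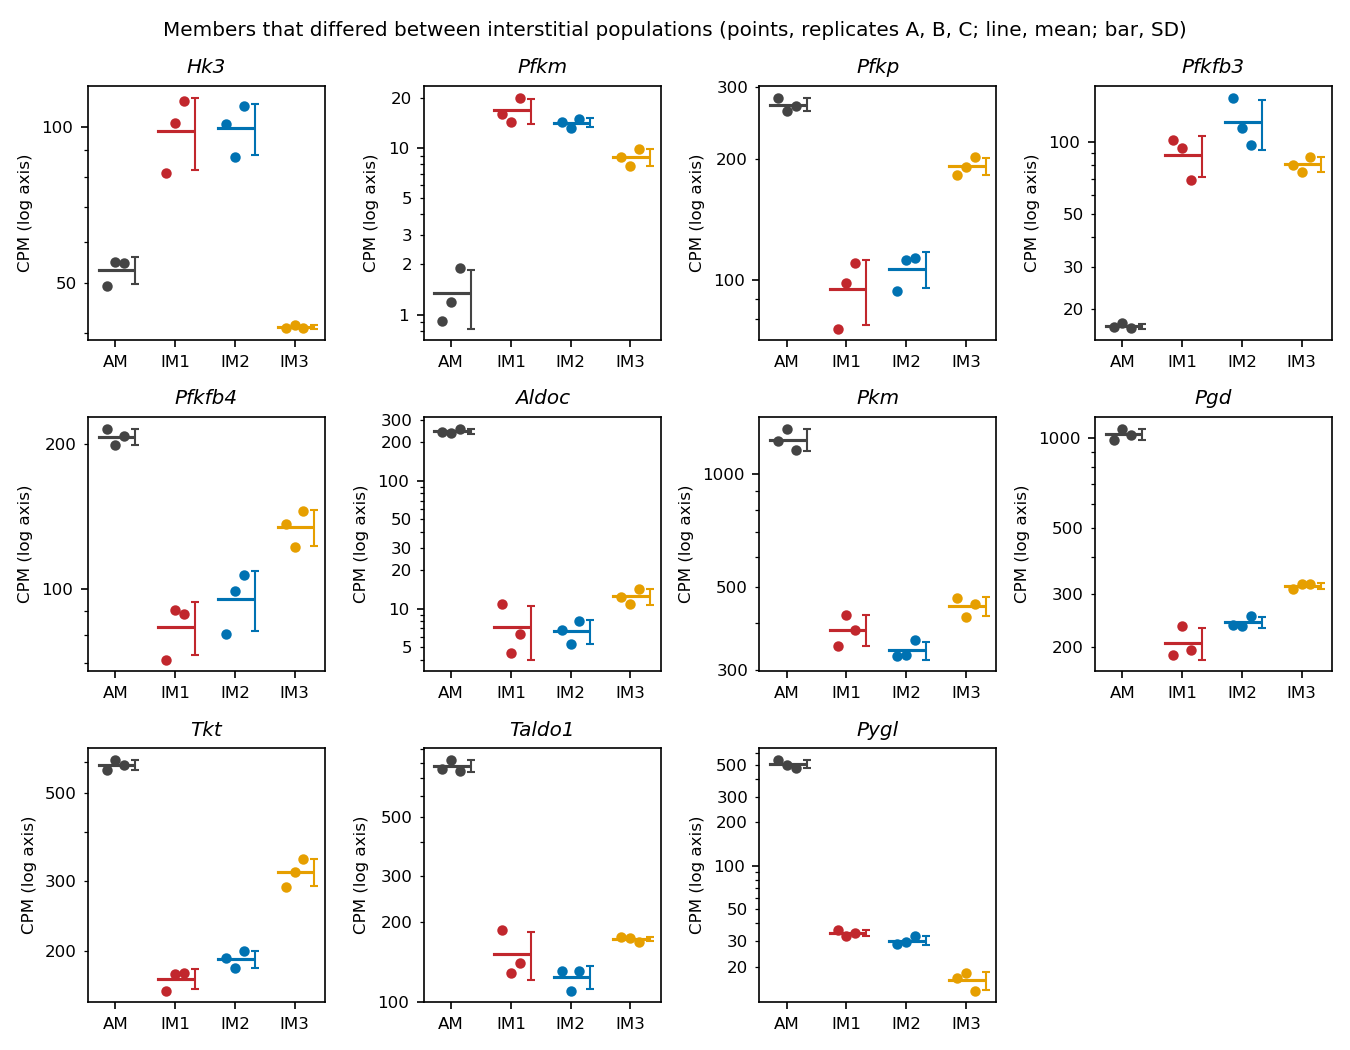
CPM on a log y axis by population on the x axis for the 11 members called between IM2 and IM3 (8 of them also between IM1 and IM3); points are libraries, lines means and bars SD. In the Hk3 panel IM3 lies below AM, IM1 and IM2, and in the Pfkp, Pfkfb4, Pgd and Tkt panels IM3 lies between AM and the other interstitial populations.

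In all, 11 members were called in at least 1 pair of interstitial populations and 24 in none (all genes, 25.7% in at least 1 pair). The steps touched were glucose phosphorylation, phosphofructokinase and its regulators, Aldoc, Pkm, the pentose phosphate genes Pgd, Tkt and Taldo1, and Pygl. Cell cycle genes also differed between these populations, with 8 of 12 higher in IM1 than in IM3, where 12.7% of all genes tested were. The summed striated muscle markers were higher in IM1 and IM2 than in IM3 in every library. Their part in the differences between members was not tested.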

How the data were processed

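The deposited values are counts per gene and sequencing run. They were made with featureCounts 1.5.0-p1, unstranded, per the file headers, on Ensembl 78 gene models, without reads mapping to several places or genes. The deposited table also gives each gene's exon length, used for RPKM. Per the submitters' processing notes, STAR 2.5.1b aligned reads to mm10, and DESeq2 1.8.1 and R 3.2.0 were used. The 38 runs were summed to 12 libraries (3 runs each, 5 for IM2 replicate A), and 42462 of 43346 identifiers had a GENCODE M21 symbol.

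All 12 libraries entered 1 fit in edgeR 4.0.16 (R 4.3.3): TMM scaling, filterByExpr with a minimum count of 10 (14095 genes), robust quasi-likelihood F test, population as the only term, Benjamini-Hochberg adjustment over all genes tested and calls at an adjusted p under 0.05. Deviations of same-lettered libraries correlated at 0.17 to 0.29 between IM1 and IM2 and at 0.14 to 0.19 between IM2 and IM3, over 0.1 in 3 of 3 pairs each, and at -0.12 to 0.17 between other populations. The labels do not say what a letter marks, and what gave these correlations was not tested. The main fit held no term for the letter, so its p-values ignore any pairing by letter. The replicate letter entered as a block in an alternative. The SE is the log2 difference divided by the root of F. The code was tested on simulated data. Isozyme shares are shares of summed RPKM, with no test. With 1 to 3 counts in AM, ratios carry a 95% exact binomial interval. Promoters are from RefSeq (GRCm38.p6), and 30 of 51 member windows matched the start of an annotated transcript.

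Members and lists were chosen with earlier results of these data known. All members are named. Further pathway genes are named when called in interstitial macrophages against AM with an absolute log2 difference of at least 2, and members called in an interstitial pair are named by size. The hypoxia targets, Pygb, IM1 against IM2 genes at an unadjusted p under 0.05 and marker genes are named outside this rule. Alternatives were upper-quartile and DESeq2 size factors, no low-count filter, DESeq2 1.42.0, the replicate letter as a block, only the populations compared, each library left out, and shares from CPM or transcript length, the last chosen after seeing the data.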

Additional observations from a re-analysis of the deposited data

Results flagged for a closer look

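Hk3 was singled out because its difference from AM had opposite signs in different interstitial populations, and the difference between them passed the test. IM1 exceeded IM3 by 1.26 on the log2 scale (adjusted p = 6.48e-06) and IM2 exceeded IM3 by 1.28 (adjusted p = 1.16e-05, edgeR), while IM3 lay below AM and IM1 and IM2 above it. Unc5a, whose exons overlap Hk3 on the opposite strand, was also lowest in IM3, and its part was not tested.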

How the results depend on the processing

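Over the 7 comparisons, no called member changed direction in 2595 values recomputed under the alternatives. In these comparisons 110 calls were lost under an alternative and 58 were gained, 35 of them for Fbp1, which the low-count filter removes from the main test, and 23 for other members. Calls that held in every alternative were 31 of 33 for interstitial macrophages against AM (all but Hk2 and Gpi1), 30 of 30 for IM1, 28 of 34 for IM2 and 26 of 30 for IM3 against AM, 7 of 8 between IM1 and IM3 and 4 of 11 between IM2 and IM3. Leaving out each library in turn gave 0 to 2 members higher in IM1 than in IM2, 3 to 5 higher in IM1 than in IM3, 2 to 4 higher in IM2 than in IM3 and 2 to 9 lower in IM2 than in IM3. The cause was not tested, though each such fit has fewer libraries. Deviations of same-lettered libraries correlated at -0.08 to 0.05 between AM and the interstitial populations. Between IM1 and IM3 the correlation was over 0.1 in 1 of 3 pairs. With the replicate block, 27 members were lower in interstitial macrophages against AM in place of 26, since Tpi1 was called (-0.25, adjusted p = 0.0384), Ldhb was called higher in IM1 than in IM3 (0.85, adjusted p = 0.0285), Eno1 was called lower in IM2 than in IM3, and the block changed no other member's call. Mean isozyme shares recomputed from CPM and from transcript length gave 112 values. Of these, 101 moved by more than 1 SD, so shares compare populations and not isozymes. Without the low-count filter Fbp1 was called higher in interstitial macrophages (adjusted p = 0.000721). Upper-quartile scaling moved the median of all genes from 0.10 to 0.14 for interstitial macrophages against AM. The part of Gapdh, Pgk1 and Pgam1 reads lost to near-identical copies was not measured.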
